A study of Arabidopsis thaliana with 12 samples.

Results

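The 9 genes described here act when a glucosinolate is broken down: the myrosinases TGG1 and TGG2, the specifier proteins ESP and NSP1 to NSP5, and the modifier ESM1. They were taken by their gene identifiers from 17751 genes tested, with raw counts over all 6 groups of libraries. ESM1 was chosen by its measured counts, which differed between genotypes in earlier results of these data, so its genotype values are given as a description with no test. Counts in every library were at hand for 7 of the 9 (ESM1, NSP1, NSP2, NSP4, NSP5, TGG1 and TGG2). ESP (AT1G54040) and NSP3 (AT3G16390) were not analysed here.

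Glucosinolates are sulfur-rich defence compounds of the cabbage order, stored apart from the myrosinases that cleave them. When tissue is damaged a myrosinase removes the glucose, and the unstable product rearranges on its own to an isothiocyanate, the pungent and toxic mustard oil. Specifier proteins turn the same product into nitriles: ESP gives epithionitriles and simple nitriles, and the NSP proteins give simple nitriles. ESM1, a protein of the GDSL lipase-like family, lowers nitrile formation in Arabidopsis thaliana and so favours isothiocyanates. Seeds of Arabidopsis are rich in glucosinolates, and their content falls as the seedling grows.

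Polyadenylated RNA of germinating seeds was sequenced from Col-0, the reference line, and from ago4-2 and ago4-3, which carry alleles of AGO4. AGO4 is an Argonaute protein that binds small interfering RNAs and guides DNA methylation. Seeds of each line germinated at 21 °C and 16 h of light on MS 1X medium (control) or on MS 1X with 100 mM NaCl added. Each of the 6 groups had 2 libraries, 12 in all, with totals of 18168653 to 47517007 counts. The labels give no age of the seeds or seedlings, neither the nature of the alleles nor the background of the mutant lines. The design text calls the libraries of a group biological replicates without saying what was grown separately. Each p-value thus weighs a difference against the spread between libraries of a group, estimated over the groups fitted. What that spread covers is not known. AGO4 itself stood at 38.9 to 46.9 CPM (counts scaled to library size with TMM factors) in Col-0, 35.4 to 49.1 in ago4-2 and 0.549 to 1.35 in ago4-3, so its transcript level checks the ago4-3 labels only. The 9 stored-seed marker genes, such as the cruciferin CRA1 and the oleosin OLEO2, were all detected, at a summed 177 to 234 CPM in Col-0 control and 9434 to 10493 CPM in ago4-2 NaCl.

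Sequences of upstream windows and of coding stretches are given before the values. The upstream windows of ESM1 and NSP5 are shown because both genes rose with salt in both mutants, and that of TGG2 because it is the measured member whose window held the motif searched. Each is the 250 bases before the annotated start of the gene, read from the RefSeq genome TAIR10.1: chr3:4729149-4729398 on the plus strand for ESM1, chr5:19542761-19543010 on the minus strand for NSP5 and chr5:9072458-9072707 on the plus strand for TGG2. Capitals mark ACGTG, the core of the element bound by abscisic acid-response bZIP factors, searched on both strands.
ESM1: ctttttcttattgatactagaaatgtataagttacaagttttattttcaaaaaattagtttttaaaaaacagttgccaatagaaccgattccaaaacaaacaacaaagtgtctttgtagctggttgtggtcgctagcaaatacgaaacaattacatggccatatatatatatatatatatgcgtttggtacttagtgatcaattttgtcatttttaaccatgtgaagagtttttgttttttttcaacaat
NSP5: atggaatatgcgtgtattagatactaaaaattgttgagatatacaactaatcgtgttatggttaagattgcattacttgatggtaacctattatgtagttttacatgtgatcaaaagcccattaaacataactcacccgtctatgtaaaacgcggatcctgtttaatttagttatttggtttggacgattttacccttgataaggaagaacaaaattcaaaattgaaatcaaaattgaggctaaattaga
TGG2: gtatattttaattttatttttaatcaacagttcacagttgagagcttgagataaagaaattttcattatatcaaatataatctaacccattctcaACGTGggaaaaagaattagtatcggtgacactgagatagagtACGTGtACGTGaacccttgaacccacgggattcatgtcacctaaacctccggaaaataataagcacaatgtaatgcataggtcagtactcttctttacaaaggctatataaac
The letters ACGTG occurred 3 times in the TGG2 window, starting 155, 113 and 107 bases before the start, and 0 times in those of ESM1 and NSP5. Of the 9 genes 2 held the motif (TGG2 and NSP3), and it occurred in 23.5% of the 17559 windows of tested genes. A match is a description of the letters and says nothing of binding.

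NSP1, NSP3 and NSP4 lie side by side on chromosome 3 and are close copies, which limits what their counts mean. Coding sequences of NSP1 and NSP4 were 95% identical, and 29.2% of the 100-base words of NSP1 also occurred in NSP4. Their longest identical stretch had 366 bases, at chr3:5567677-5568042 in NSP1 and chr3:5573706-5574071 in NSP4, both on the plus strand and inside 1 exon. Its end and the 80 bases that follow are shown, since a read from within the identical part matches both genes, at chr3:5567843-5568122 in NSP1 and chr3:5573872-5574151 in NSP4, with a capital on the base that differs.
NSP1: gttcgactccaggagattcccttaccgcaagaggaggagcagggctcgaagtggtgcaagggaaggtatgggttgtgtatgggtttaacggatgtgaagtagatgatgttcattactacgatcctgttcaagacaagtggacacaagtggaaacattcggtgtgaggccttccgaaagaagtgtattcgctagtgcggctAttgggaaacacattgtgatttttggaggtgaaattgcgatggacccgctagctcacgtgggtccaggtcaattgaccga
NSP4: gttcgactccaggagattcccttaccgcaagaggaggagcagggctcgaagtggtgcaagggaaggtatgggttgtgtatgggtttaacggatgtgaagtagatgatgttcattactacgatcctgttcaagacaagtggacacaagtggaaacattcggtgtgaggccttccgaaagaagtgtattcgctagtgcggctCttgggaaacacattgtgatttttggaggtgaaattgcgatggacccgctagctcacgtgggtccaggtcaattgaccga
Over these 280 bases the genes differed at 1 position. The sources used here do not say how reads from such stretches were assigned, so the counts of NSP1 and NSP4 are uncertain. NSP1 and NSP3 shared at most 68 identical bases and NSP3 and NSP4 at most 56. TGG1 and TGG2, neighbours on chromosome 5, were 82.2% identical with a longest shared stretch of 55 bases. ESM1 shared at most 13 bases with any of the other 8 genes.

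ESM1 (AT3G14210; TAIR10.1 chr3:4729399-4731847, plus strand, 5 coding exons) was close to silent in Col-0 and expressed in both mutants, most in ago4-3. In Col-0 control its counts were 26 and 12, or 0.499 and 0.497 CPM, and in Col-0 NaCl 26 and 36, or 0.751 and 1.04 CPM. In ago4-2 control there were 1099 and 1489 counts (71 and 50.5 CPM), and in ago4-2 NaCl 2221 and 3121 (96.1 and 104 CPM). The ago4-3 libraries held 10792 and 8414 counts in control (382 and 441 CPM) and 15900 and 21610 in NaCl (773 and 741 CPM). No library of one genotype overlapped with one of another: every ago4-2 library lay above every Col-0 library, and every ago4-3 library above every ago4-2 library.

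Group means of ESM1 were 0.498 ± 0.00152 CPM in Col-0 control, 60.8 ± 14.5 in ago4-2 control and 412 ± 41.7 in ago4-3 control (SD, n = 2 each). With NaCl they were 0.894 ± 0.203, 100.1 ± 5.65 and 757 ± 22.2 CPM. The ratio of means between ago4-2 and Col-0 was 122 in control, with ratios of single libraries from 101 to 143, and 112 in NaCl (92.7 to 139). Between ago4-3 and Col-0 it was 827 in control (767 to 888) and 847 in NaCl (715 to 1029). The mutants differed from each other too, by 6.78 times in control (5.39 to 8.74) and 7.56 times in NaCl (7.12 to 8.04). Since the labels do not give the lines' background, a sequence difference at or near ESM1 and an effect of the ago4 alleles cannot be told apart. In bulk seed RNA, more cells that express a gene and more RNA per cell cannot be told apart either.

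**Figure D1:**
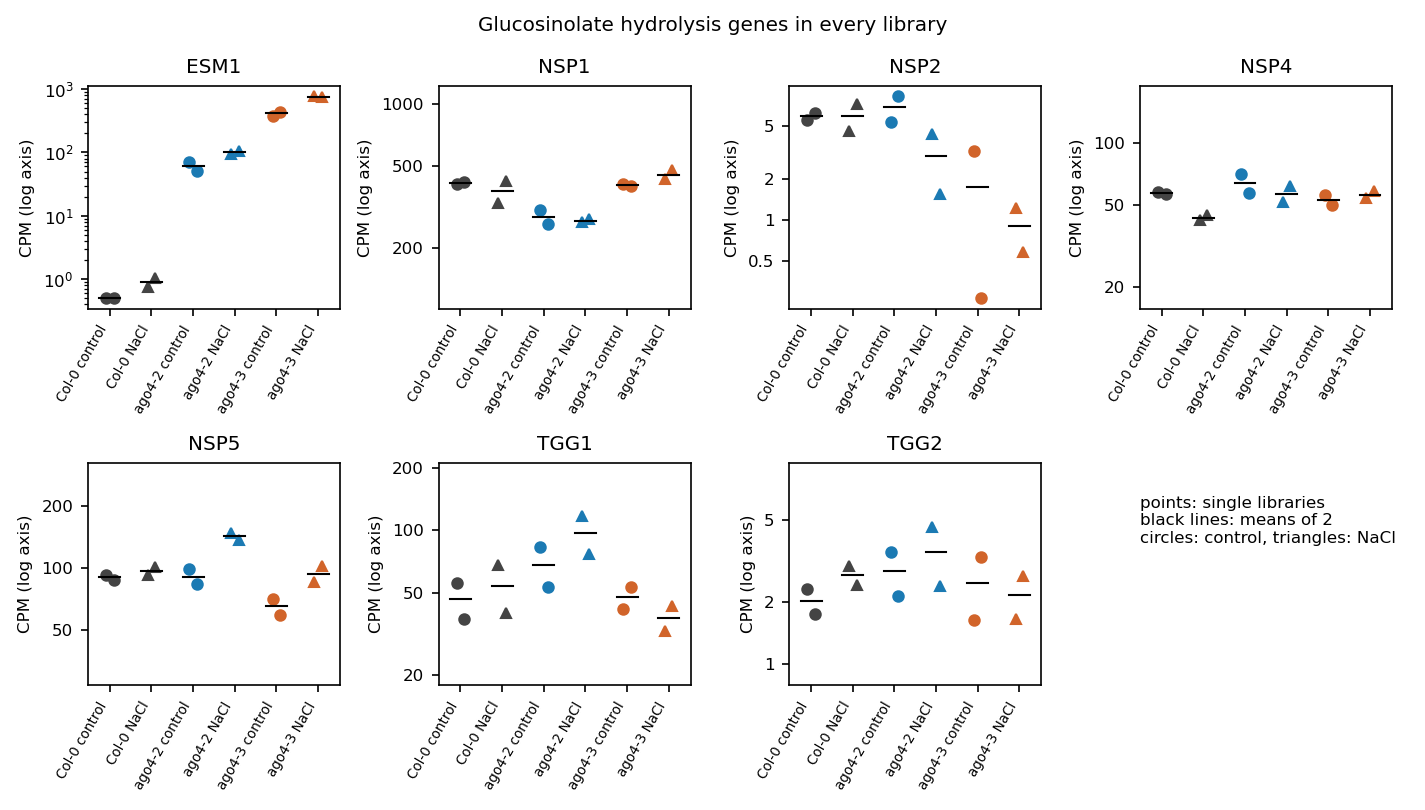
Level of each of the 7 measured genes in every library, as TMM-scaled CPM on log axes of differing range, for Col-0 (grey), ago4-2 (blue) and ago4-3 (orange) in control (circles) and NaCl (triangles); black lines are means of 2 libraries. ESM1 goes from 0.497 to 773 CPM, while the other genes stay within a far narrower range.

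Measured per length, ESM1 went from the lowest to the highest of the 7 genes. In Col-0 control the order in CPM per kb of exon was NSP1 (201 ± 4.37), NSP5 (52.2 ± 2.27), TGG1 (24.6 ± 6.82), NSP4 (23.6 ± 0.441), NSP2 (2.81 ± 0.238), TGG2 (1.03 ± 0.202) and ESM1 (0.255 ± 0.000778; SD, n = 2 each). All neighbours in that order had separate libraries except TGG1 and NSP4. In ago4-2 control ESM1 stood at 31.1 ± 7.41 CPM per kb, between TGG1 and NSP4 and overlapping with both. In ago4-3 control its 211 ± 21.4 overlapped with the 196 ± 3.39 of NSP1, and in ago4-3 NaCl its 388 ± 11.4 lay above the 221 ± 15.3 of NSP1 in both libraries. ESM1 made up 0.0827% and 0.0843% of the summed CPM per kb of the 7 genes in the Col-0 control libraries, against 40.6% and 44.8% in ago4-3 control and 56.9% and 52.8% in ago4-3 NaCl. The sum of the other 6 genes ranged from 232 to 339 CPM per kb over the 12 libraries.

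Salt raised ESM1 in both mutants. Its log2 fold change with NaCl was 0.73 ± 0.14 in ago4-2 (SE, adjusted p = 0.00102) and 0.88 ± 0.14 in ago4-3 (adjusted p = 0.000298). Both libraries with NaCl lay above both control libraries in each line, and each call held in all 9 alternative fits, with adjusted p up to 0.0155 and 0.00725. In Col-0 the estimate was 0.84 ± 0.33 and was not called (adjusted p = 0.0959, and 0.0534 to 0.406 over the alternatives), on 12 to 36 counts per library. The salt change of ESM1 in ago4-2 minus that in Col-0 was -0.11 on the log2 scale, and for ago4-3 it was 0.04, both given without a test.

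The genes beside ESM1 did not share its rise. Among the 20 measured neighbours, 10 on each side over 118 kb, log2 fold changes between a mutant and Col-0 lay between -0.69 and 0.67 in all 4 comparisons. In ago4-2 against Col-0 in control 3 of 20 were called, where 8.44% of all genes were: AT3G14172 (-0.60) and AT3G14200 (-0.51) lower and the ethylene response factor gene RAP2.2 (0.43) higher. These 3 calls ended on the compared groups alone and with either Col-0 control library or ago4-2 control replicate 1 left out, with adjusted p up to 0.161. In ago4-3 against Col-0 in control 1 was called (background 1.66%), AT3G14190 at 0.67, and this call held in 2 of 9 alternatives. With NaCl 6 of 20 were called in ago4-2 (background 29.3%) and 0 in ago4-3 (background 1.19%). The next gene downstream, the lipase-like AT3G14220, stood at 147 CPM in Col-0 control, 190.2 in ago4-2 and 162 in ago4-3, with log2 fold changes of 0.37 ± 0.12 (adjusted p = 0.0809) and 0.14 ± 0.12 (adjusted p = 0.657). In NaCl it was higher in ago4-2 than in Col-0 (0.56 ± 0.12, adjusted p = 0.00336).

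**Figure D2:**
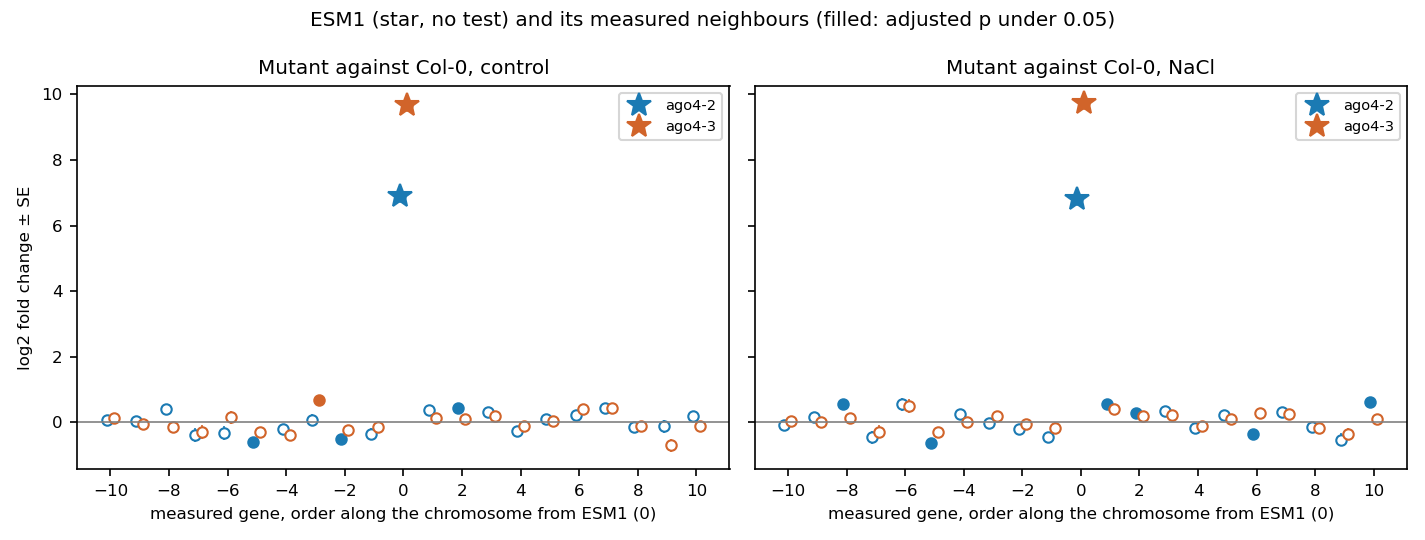
Log2 fold change (± SE) of ESM1 and of 10 measured genes on each side, in order along chromosome 3, for ago4-2 (blue) and ago4-3 (orange) against Col-0 in control (left) and NaCl (right). ESM1, drawn as a star with no test, stands at 6.91 and 9.68 in control and at 6.80 and 9.72 in NaCl, and the 20 neighbours lie between -0.69 and 0.67.

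The 5 genes whose centred log2 profile over the 12 libraries lay nearest to that of ESM1 were chosen for that likeness, so their low level in Col-0 follows from the choice. The nearest was the pseudogene AT2G11410 on chromosome 2, at a root mean square difference of 0.80 on the log2 scale, where the median over all genes was 4.04 and a gene with a flat profile would differ by 4.03. It was listed at 0 in both Col-0 control libraries, at 3.91 ± 1.42 CPM in ago4-2 control and at 20.8 ± 2.44 in ago4-3 control. Next came AT3G28300 (1.29) and AT3G28290 (1.32), the near-identical copies annotated as AT14A, whose reads the counting could split between them. They reached 51.4 and 53.1 CPM in ago4-3 NaCl, against 6.18 and 5.49 in ago4-3 control. The pseudogenes AT5G35935 (1.40) and AT4G08093 (1.68) completed the 5. None of the 5 lies near ESM1.

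**Figure D3:**
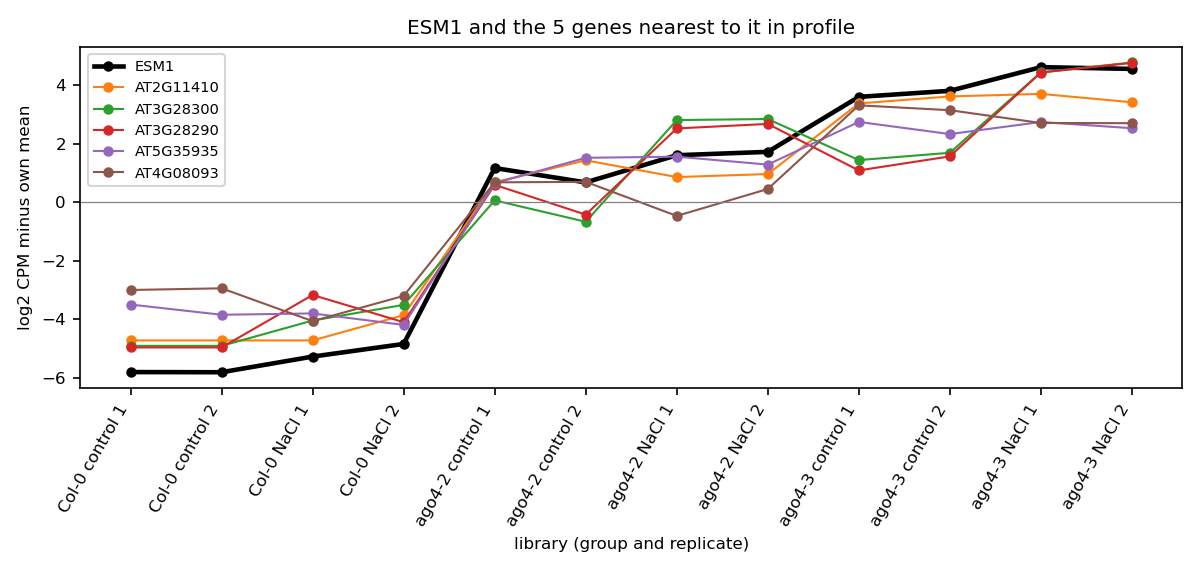
Log2 CPM minus each gene's own mean (vertical axis) in the 12 libraries (horizontal axis, by group and replicate) for ESM1 (black, thick) and the 5 genes nearest to it; lines join the points of a gene and stand for no order of samples. All 6 genes are below their mean in the 4 Col-0 libraries and above it in the 4 ago4-3 libraries.

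NSP1 (AT3G16400), a specifier of simple nitriles in Arabidopsis, was lower in ago4-2 than in the other lines. In Col-0 it stood at 408 and 421 CPM in control and at 330.1 and 426 in NaCl. In ago4-2 it stood at 307 and 262 CPM in control and at 267 and 276 in NaCl, below every library of Col-0 and ago4-3. The ago4-3 libraries held 409.7 and 399.8 CPM in control and 433 and 477 in NaCl.

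Against Col-0, NSP1 in ago4-2 was lower by a log2 fold change of -0.54 ± 0.13 in control (SE, adjusted p = 0.017) and -0.48 ± 0.13 in NaCl (adjusted p = 0.0125). The control call ended on its own groups alone (adjusted p = 0.0505) and when any of 3 libraries was left out: Col-0 control replicate 1 (0.0957), its replicate 2 (0.131) or ago4-2 control replicate 2 (0.0542). The NaCl call ended without Col-0 NaCl replicate 2 (-0.28, adjusted p = 0.135) or ago4-2 NaCl replicate 1 (0.0843) or 2 (0.0619). NSP1 was higher in ago4-3 than in ago4-2, by 0.51 ± 0.13 in control (adjusted p = 0.022) and 0.74 ± 0.13 in NaCl (adjusted p = 0.000915). The control difference ended on its own groups alone (adjusted p = 0.087) and without any of 3 libraries, ago4-2 control replicate 2 (0.0933), ago4-3 control replicate 1 (0.101) and replicate 2 (0.0917), while the NaCl difference was called in every alternative. Salt gave no call for NSP1 in any line, with log2 fold changes of -0.13, -0.07 and 0.17 in Col-0, ago4-2 and ago4-3.

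NSP4 (AT3G16410), the neighbour that shares sequence with NSP1, fell with salt in Col-0, from 57.7 and 56.2 CPM to 42 and 44.6, a log2 fold change of -0.40 ± 0.12 (SE, adjusted p = 0.0265). It was higher in ago4-2 than in Col-0 in NaCl, at 51.6 and 61.4 CPM (0.39 ± 0.12, adjusted p = 0.0218). In ago4-2 control it stood at 70.5 and 57.3 CPM, and in ago4-3 at 56 and 49.9 in control and 53.7 and 58.4 in NaCl. The fall in Col-0 was lost when any one of its 4 libraries was left out (adjusted p = 0.0645 to 0.147). The difference from ago4-2 was lost without Col-0 NaCl replicate 1 (0.0922) or ago4-2 NaCl replicate 2 (0.25, adjusted p = 0.238).

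NSP5 (AT5G48180; chr5:19540937-19542760, minus strand), another simple nitrile specifier, rose with salt in both mutants. In ago4-2 it went from 98.5 and 83.5 CPM to 148 and 137, a log2 fold change of 0.65 ± 0.12 (SE, adjusted p = 0.000603), called in every alternative. In ago4-3 it went from 70.9 and 59.5 CPM to 85.7 and 102 (0.52 ± 0.12, adjusted p = 0.00476), a call lost without ago4-3 control replicate 2 (0.065) or NaCl replicate 2 (0.063). Both NaCl libraries lay above both control libraries in each mutant.

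In Col-0 NSP5 stood at 93 and 87.4 CPM in control and 92.9 and 101 in NaCl, and its change of 0.10 ± 0.11 was not called (adjusted p = 0.598). The salt change in ago4-2 minus that in Col-0 was 0.54 ± 0.16 and missed the threshold in edgeR (adjusted p = 0.0753). It was called by DESeq2 (adjusted p = 0.0297) and without ago4-2 control replicate 1 (0.66, adjusted p = 0.0263), so whether the lines differ in this response depends on the fit. For ago4-3 the same difference was 0.42 ± 0.16 (adjusted p = 0.803).

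With NaCl NSP5 was higher in ago4-2 than in Col-0 (0.55 ± 0.11, adjusted p = 0.00239) and lower in ago4-3 than in ago4-2 (-0.60 ± 0.12, adjusted p = 0.00202), both called in every alternative. In control it was lower in ago4-3 than in ago4-2 (-0.48 ± 0.12, adjusted p = 0.0189). That call was lost on its own groups alone (0.117) and without ago4-2 control replicate 1 (0.126) or ago4-3 control replicate 2 (0.193). Against Col-0 in control the ago4-3 level was -0.47 ± 0.12, not called by edgeR (adjusted p = 0.0652) and called by DESeq2 (0.0146).

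NSP2 (AT2G33070; chr2:14028282-14031164, minus strand), a specifier of simple nitriles in Arabidopsis seeds, had low counts and its lowest levels in ago4-3. Col-0 held 5.51 and 6.21 CPM in control and 4.53 and 7.2 in NaCl. In ago4-2 there were 5.36 and 8.28 CPM in control and 4.37 and 1.57 in NaCl. In ago4-3 there were 3.23 and 0.262 CPM in control, from 91 and 5 counts, and 1.22 and 0.583 in NaCl, from 25 and 17 counts. Both ago4-3 libraries lay below both Col-0 and both ago4-2 libraries in each medium, but the control pair of ago4-3 spread widely. The share of all genes whose libraries separate in this way is not given here.

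No NSP2 comparison passed the threshold. Against Col-0 the ago4-3 estimate was -1.64 ± 0.61 in control (SE, adjusted p = 0.235) and -2.76 ± 0.68 in NaCl (adjusted p = 0.0731). In control it became -4.45 (adjusted p = 0.014) without ago4-3 control replicate 1, and in NaCl it was called when fitted on its own groups alone (adjusted p = 5.83e-05). Against ago4-2 the estimates were -1.88 in control (adjusted p = 0.0733) and -1.75 in NaCl (adjusted p = 0.0945). The first was called without ago4-2 control replicate 1 (-2.12, 0.0483) or ago4-3 control replicate 1 (-4.69, 0.00273), and the second on its own groups alone (0.0236). The ago4-2 estimate against Col-0 in NaCl, -1.01 (adjusted p = 0.207), was likewise called on its own groups alone (0.0419). Salt estimates were 0.01 in Col-0, -1.24 in ago4-2 (adjusted p = 0.116) and -1.11 in ago4-3 (adjusted p = 0.307), and the last became -1.89 (0.0387) without ago4-3 control replicate 2.

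TGG1 (AT5G26000), the myrosinase of guard cells and myrosin idioblasts, was higher in ago4-2 than in the other lines with NaCl. In NaCl it stood at 68.2 and 39.6 CPM in Col-0, 117 and 76.8 in ago4-2, and 32.5 and 43.2 in ago4-3. In control the values were 55.7 and 37.4, 82.8 and 53.3, and 41.6 and 53.2 CPM in the same order. Replicates of a group spread widely, with SDs of 7.52 to 28.6 CPM. In NaCl both ago4-2 libraries lay above the other 4, and in control Col-0 overlapped with both mutants.

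The TGG1 difference in NaCl was 0.85 ± 0.27 between ago4-2 and Col-0 (SE, adjusted p = 0.0302) and -1.35 ± 0.28 between ago4-3 and ago4-2 (adjusted p = 0.00322). The first was lost in DESeq2 (0.0848) and without Col-0 NaCl replicate 2 (0.51, adjusted p = 0.232) or ago4-2 NaCl replicate 1 (0.50, 0.298), and the second without ago4-2 NaCl replicate 1 (-1.02, 0.0544). Salt gave no call for TGG1, with 0.20 in Col-0, -0.32 in ago4-3 and 0.52 ± 0.27 in ago4-2 (adjusted p = 0.158, and 0.86 with 0.0331 without ago4-2 control replicate 1). Of 7 listed markers of the stomatal lineage and myrosin idioblasts 6 were measured, and FAMA was not. In ago4-2 against Col-0 with NaCl 3 were called (29.3% of all genes): MUTE higher, SPCH and EPF2 lower. Between ago4-3 and ago4-2 in NaCl 1 was called (20.9% of all genes), MUTE lower (-0.96, and -1.25 to -0.73 over the alternatives). That call between the mutants was lost without ago4-2 NaCl replicate 1 or ago4-3 NaCl replicate 1. The SPCH call was lost without Col-0 NaCl replicate 1 or either ago4-2 NaCl library (adjusted p up to 0.196). Their summed level was 156 to 163 CPM in Col-0 NaCl, 169 to 178 in ago4-2 NaCl and 152 to 161 in ago4-3 NaCl, and their part in the TGG1 difference was not tested.

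TGG2 (AT5G25980), the partner myrosinase, was low throughout, at 1.63 to 4.59 CPM with a median of 2.41 over the 12 libraries. It passed the threshold in 0 of 11 contrasts, and in 0 by DESeq2 and at an unadjusted p under 0.05. The largest estimate was -0.66 ± 0.40 for ago4-3 against ago4-2 in NaCl (adjusted p = 0.266), from 4.59 and 2.4 CPM to 1.65 and 2.68. Its libraries held 34 to 120 counts, and what size of change could be called at these counts was not tested.

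Counted over the set, most genotype calls were in NaCl comparisons that involve ago4-2. The same comparisons had the largest shares of all genes called between genotypes (29.3% and 20.9%). Salt gave 1 call of 7 in Col-0 (NSP4, lower; 18.2% of all genes were called), 2 in ago4-2 (ESM1 and NSP5, higher; 35.1%) and 2 in ago4-3 (the same pair, higher; 23.0%). Among the 6 genes without ESM1, ago4-2 against Col-0 gave 1 call in control (NSP1, lower; background 8.44%, of which 5.22% higher and 3.22% lower) and 4 in NaCl (NSP4, NSP5 and TGG1 higher, NSP1 lower; background 29.3%). Against Col-0, ago4-3 gave 0 in both media (1.66% and 1.19%), with 2 at an unadjusted p under 0.05 in each and 1 and 0 by DESeq2. Between ago4-3 and ago4-2 there were 2 calls in control (NSP1 and NSP5; background 9.0%) and 3 in NaCl (NSP1, NSP5 and TGG1; background 20.9%). The salt change differed from that of Col-0 in 0 of 6 genes for ago4-2 (background 4.43%, of which 1.84% higher and 2.59% lower) and for ago4-3 (0.0225%, of which 0.0113% in each direction), with 1 and 2 at an unadjusted p under 0.05 and 1 and 0 by DESeq2. These comparisons share libraries and are not independent of each other. The median log2 fold change of all genes stayed within 0.02 of 0 in each.

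**Figure D4:**
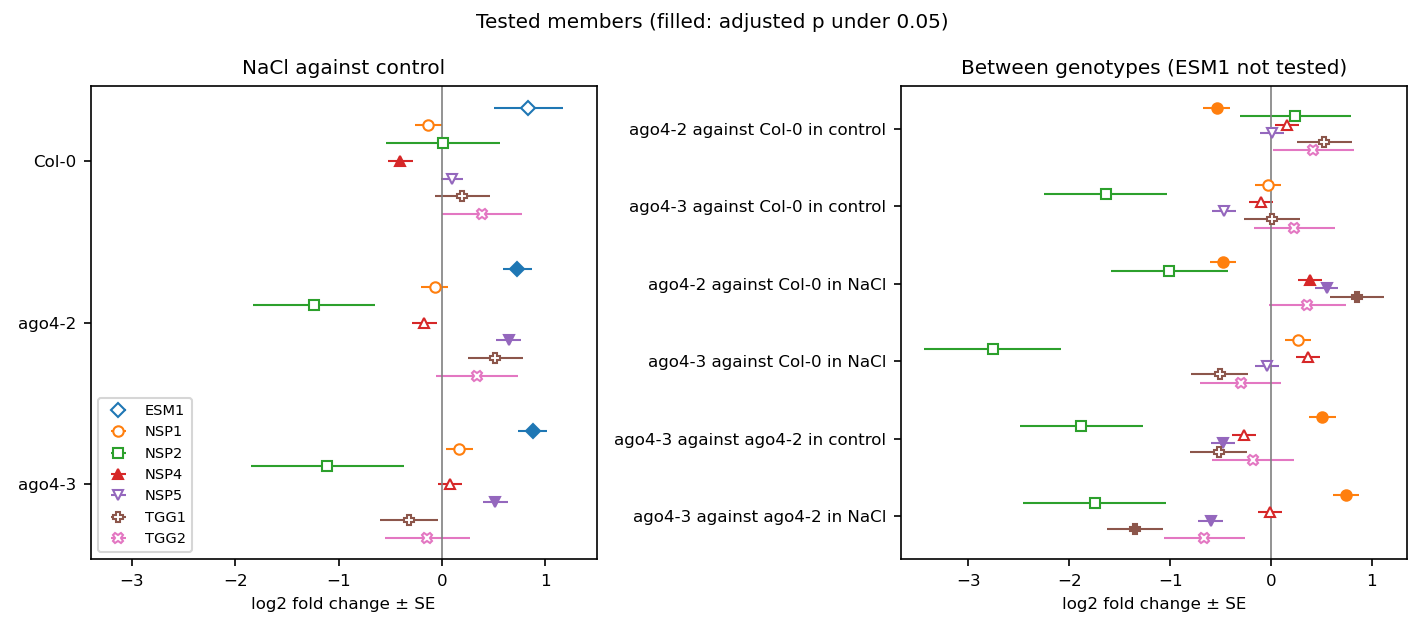
Log2 fold change (± SE) of the measured genes with NaCl in each line (left) and between genotypes in each medium (right, without ESM1); filled symbols have an adjusted p under 0.05. NSP1 is filled in all 4 genotype comparisons that involve ago4-2, and NSP2 has the widest errors.

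Stored-seed, green tissue and endosperm transcripts also differed between groups. In ago4-3 against Col-0 in NaCl 3 of 9 stored-seed markers were higher (0.541% of all genes), calls lost in some alternatives. All 9 stored-seed markers were higher in ago4-2 than in Col-0, at a median log2 fold change of 3.27 in control and 3.32 in NaCl, and all 9 were lower in ago4-3 than in ago4-2. Of all genes 5.22% and 14.9% were higher in ago4-2 in the same comparisons, and 5.21% and 11.0% were lower in ago4-3 than in ago4-2. The summed level of the stored-seed markers was 177 to 234 CPM in Col-0 control and 697 to 1051 in Col-0 NaCl. It was 1927 to 2101 and 9434 to 10493 in ago4-2, and 198 to 343 and 1658 to 1759 in ago4-3. Single members went both ways with salt, with list medians of 0.17 in Col-0, -0.06 in ago4-2 and -0.21 in ago4-3. In Col-0 3 were higher and 1 lower (10.7% and 7.42% of all genes). In ago4-2 4 were higher and 2 lower (17.4% and 17.8%), and in ago4-3 4 higher and 1 lower (12.6% and 10.4%). All 6 measured green tissue markers were lower in ago4-2 than in Col-0 with NaCl, at 313 to 349 CPM in sum against 856 to 901, where 14.4% of all genes were lower. With salt 3 of these 6 were higher in Col-0 (10.7% of all genes) and 4 lower in ago4-2 (17.8%). In ago4-3 salt gave 3 higher and 3 lower (12.6% and 10.4%). Of the 2 endosperm markers, the expansin gene EXPA2 stood at 48.2 ± 6.43 CPM in Col-0 control, 78.3 ± 14.4 in ago4-2 control and 10.5 ± 0.673 in ago4-3 control. In ago4-3 it was lower than in ago4-2 in control (-2.89 ± 0.17, adjusted p = 2.62e-08) and NaCl (-1.86 ± 0.17, adjusted p = 2.67e-06), and lower than in Col-0 in both media. The mannanase gene MAN7 was higher in ago4-2 NaCl than in Col-0 NaCl (0.77 ± 0.11, adjusted p = 9.14e-05) and ago4-3 NaCl. In ago4-3 against Col-0 MAN7 was not called in either medium (-0.20 in control and -0.04 in NaCl). With salt EXPA2 and MAN7 had estimates of opposite sign, at -1.01 and 0.20 in Col-0 and -1.54 and 0.82 in ago4-2. In ago4-3 they were -0.51 and 0.36, calls lost in some alternatives. Sums of the 2 were 74.9 to 81.3 CPM in Col-0 control and 54.2 to 62.7 in Col-0 NaCl. They were 100.5 to 123 and 81.9 to 88.9 in ago4-2, and 36.1 to 37.3 and 38.6 to 43.2 in ago4-3. The part of any of these markers in the results on the hydrolysis genes was not tested.

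Upstream in the pathway, many genes that make indole glucosinolates or act in the steps shared by all glucosinolates were higher in ago4-3 than in ago4-2. Of 15 measured in a list of 18, 6 were higher and 0 lower in control (3.79% and 5.21% of all genes), and 11 higher and 0 lower in NaCl (9.89% and 11.0%). The NaCl count was 7 without either ago4-2 NaCl library, and the median log2 fold change of the list was 0.43. CYP79B3, which converts tryptophan to its aldoxime, stood at 9.62 ± 0.696 CPM in ago4-3 NaCl and 3.99 ± 0.357 in ago4-2 NaCl (1.27 ± 0.20, adjusted p = 0.000337). Its homologue CYP79B2 (0.94 ± 0.12, adjusted p = 8.84e-05) and MYB34, a regulator of indole glucosinolate synthesis (0.78 ± 0.10, adjusted p = 8.36e-05), were also higher. All 3 differences were called in every alternative. In the same NaCl comparison all 6 measured green tissue markers were higher and all 9 stored-seed and both endosperm markers lower in ago4-3, and their part in the list's count was not tested.

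Against Col-0, 5 of these 15 genes were higher and 0 lower in ago4-3 control (0.851% and 0.806% of all genes). With replicate 1 of Col-0 control left out the count was 0, with either replicate 2 (Col-0 or ago4-3 control) left out it was 1, and on the compared groups alone it was 8. In ago4-3 NaCl 2 were higher and 0 lower (0.541% and 0.648%), and leaving out any one of the 4 libraries brought the count to 0 or 1. In ago4-2 NaCl 0 were higher and 5 lower than in Col-0 (14.9% and 14.4%), and 2 were called without Col-0 NaCl replicate 1 or either ago4-2 NaCl library. MYB34 (-0.72 ± 0.10, adjusted p = 0.00011) and CYP79B3 (-1.08 ± 0.19, adjusted p = 0.000828) held throughout. In ago4-2 control 0 of 15 were called.

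With salt, genes of this list were called in both directions. In Col-0 4 of 15 were lower and 1 higher (7.42% and 10.7% of all genes), in ago4-2 9 lower and 1 higher (17.8% and 17.4%), and in ago4-3 4 lower and 2 higher (10.4% and 12.6%). The Col-0 total of 5 was 2 without either control library and 3 without NaCl replicate 1, and the ago4-2 total of 10 was 6 without either NaCl library. GSTF9, a glutathione transferase gene, rose in all 3 lines, by 0.72 ± 0.14 in Col-0 (adjusted p = 0.00258), 0.45 ± 0.14 in ago4-2 (adjusted p = 0.0243) and 0.62 ± 0.14 in ago4-3 (adjusted p = 0.00578), and the Col-0 call held in every alternative. UGT74B1, the glucosyltransferase of the core pathway, fell in ago4-2 (-0.65 ± 0.11, adjusted p = 0.000282) and ago4-3 (-0.55 ± 0.10, adjusted p = 0.00159), as did the sulfotransferase gene SOT16 (-0.58 ± 0.11, adjusted p = 0.000796, and -0.53 ± 0.11, adjusted p = 0.00247), all called in every alternative. In Col-0 both were also called lower. UGT74B1 went from 42.5 ± 2.49 to 32.8 ± 2.99 CPM there. The Col-0 change of SOT16 was -0.42 ± 0.11 (adjusted p = 0.0135), a call that did not hold in every alternative (-0.48 to -0.36). CYP81F2, which hydroxylates indole glucosinolates, fell in all 3 lines. It went from 18.8 ± 0.669 to 7.95 ± 0.824 CPM in Col-0 (-1.24 ± 0.15, adjusted p = 5.5e-05), from 19.3 ± 1.26 to 8.08 ± 1.05 in ago4-2 (-1.26 ± 0.15, adjusted p = 2.14e-05) and from 19.9 ± 2.75 to 7.44 ± 0.831 in ago4-3 (-1.42 ± 0.16, adjusted p = 1.37e-05).

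In the methionine-derived, aliphatic branch 12 of 30 listed genes were measured. MYB28, MYB29, MYB76, BCAT4, MAM1, MAM3, CYP79F1, CYP79F2 and CYP83A1 were among those not measured. The counts below thus cover only a part of the branch. Salt gave 1 call of 12 in Col-0 (18.2% of all genes), 2 in ago4-2 (35.1%) and 4 in ago4-3 (23.0%). Between lines there were 0 in ago4-2 control (8.44%) and 3 in ago4-2 NaCl (29.3%) against Col-0, and 1 and 0 in ago4-3 (1.66% and 1.19%). Between ago4-3 and ago4-2 there was 1 call in each medium (9.0% and 20.9%). AOP1, a dioxygenase gene of the AOP family, fell with salt in ago4-2 from 6.08 ± 0.442 to 3.06 ± 0.292 CPM (-0.98 ± 0.22, adjusted p = 0.00273). BCAT3, an aminotransferase of chain elongation, fell there from 138 ± 5.27 to 108 ± 0.489 CPM (-0.36 ± 0.09, adjusted p = 0.00497), and both falls were called in every alternative that could be fitted. SOT17, a sulfotransferase of the last core step, was higher in ago4-3 than in ago4-2 in control (0.98 ± 0.16, adjusted p = 0.00115) and NaCl (0.79 ± 0.16, adjusted p = 0.00312). GTR1, a glucosinolate importer, stood at 36.1 ± 8.63 CPM in ago4-2 control against 18 ± 0.809 in Col-0 control (0.99 ± 0.15, adjusted p = 0.00052) and at 47.8 ± 2.64 against 25.8 ± 0.612 in NaCl (0.89 ± 0.14, adjusted p = 0.000351). It was lower in ago4-3 than in ago4-2 in both media, called in every alternative.

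Downstream, where nitrilases act on nitriles, 1 of 4 nitrilase genes rose with salt in both mutants, where 17.4% of all genes were higher in ago4-2 and 12.6% in ago4-3. This was NIT2, which in ago4-2 went from 3 ± 0.409 to 8.84 ± 0.473 CPM (1.54 ± 0.30, adjusted p = 0.0011). In ago4-3 its rise was lost without replicate 2 of either medium (adjusted p up to 0.271). NIT4, whose enzyme acts on cyanoalanine, was lower in both mutants than in Col-0 with NaCl (14.4% of all genes in ago4-2, 0.648% in ago4-3). The difference was -1.11 ± 0.18 in ago4-2 (adjusted p = 0.00036), and the call in ago4-3 held in 4 of 9 alternatives. Of 9 measured myrosinase-associated and jacalin-like genes, salt gave 3 calls in Col-0 (18.2% of all genes), 3 in ago4-2 (35.1%) and 2 in ago4-3 (23.0%). Against Col-0 there were 1 in ago4-2 control (8.44%), 2 in ago4-2 NaCl (29.3%) and 0 in ago4-3 in both media (1.66% and 1.19%). Between ago4-3 and ago4-2 there were 1 in control (9.0%) and 2 in NaCl (20.9%). Among them the jacalin-like lectin gene JAL33 rose with salt in all 3 lines, a call that held in every alternative in ago4-3, from 76.7 ± 2.52 to 164 ± 9.09 CPM (2.14-fold, adjusted p = 0.000185). The call was lost in Col-0 without control replicate 1 or NaCl replicate 2 (adjusted p up to 0.0832), and in ago4-2 without NaCl replicate 2 (0.0621). Of 8 other beta-glucosidase genes 2 were measured, PEN2 and BGLU23. In edgeR they gave 0 calls with salt in Col-0 (18.2% of all genes), ago4-2 (35.1%) and ago4-3 (23.0%), with 0, 1 and 1 at an unadjusted p under 0.05 and 0, 1 and 1 by DESeq2. 

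**Figure D5:**
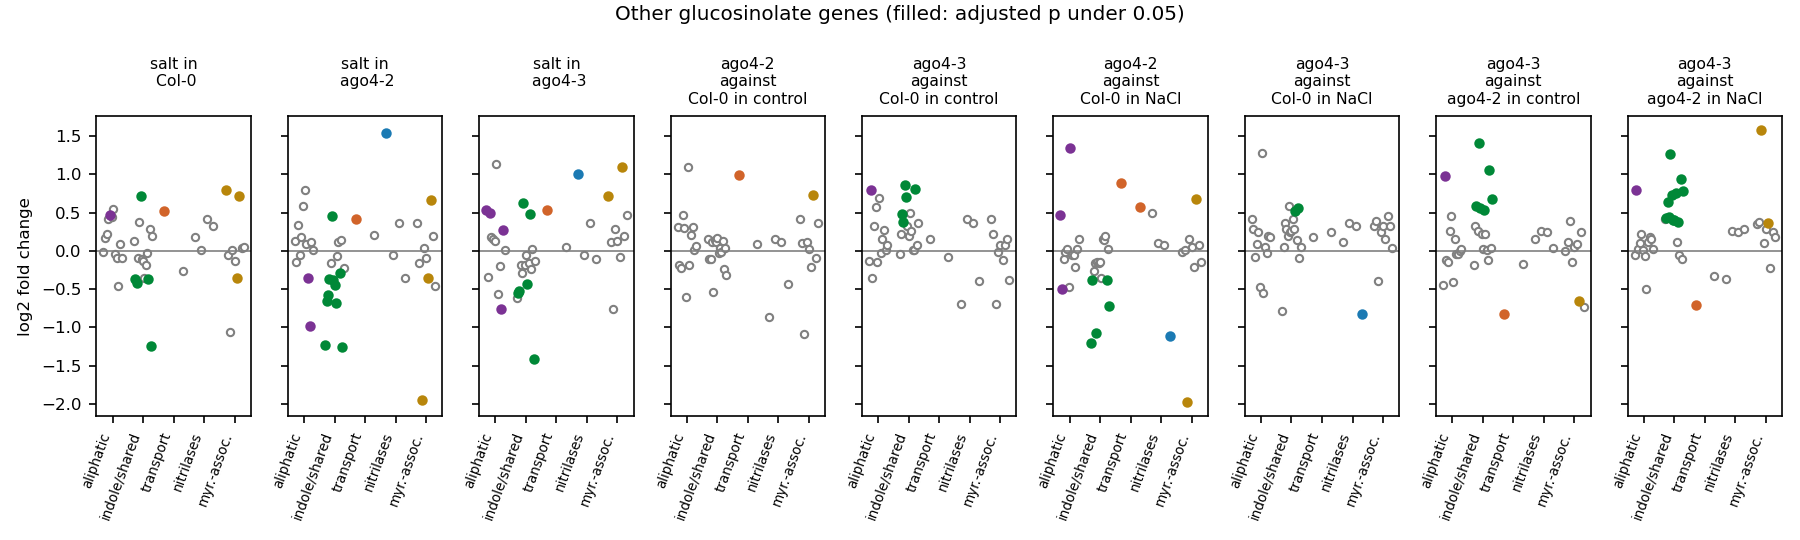
Log2 fold change (vertical axis) of each measured gene of 5 lists around the hydrolysis step, in 9 comparisons; filled points have an adjusted p under 0.05 and open points do not. In the 2 rightmost panels, ago4-3 against ago4-2, all filled points of the indole and shared list lie above 0 (6 in control, 11 in NaCl).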

How the data were processed

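Each of the 12 libraries appeared in 3 of 9 deposited tables. The raw counts per gene in these tables were made by the authors against TAIR10, whose name, with SAMtools, Picard, DESeq and edgeR, comes from the submitters' processing notes. Aligner, counter, read length and strandedness are not given in the sources used here. Counts of a library agreed between tables in every case. Another 36 columns of per-sample pseudo-counts were not used. Among values of 1 to 20 the share of even ones was 72.35% to 87.65%, so a count need not stand for 1 independent fragment.

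Genes with counts in all 12 libraries (17751) entered edgeR 4.0.16 in R 4.3.3: TMM scaling, 6 group means, quasi-likelihood tests and Benjamini-Hochberg adjustment over all genes, called at an adjusted p under 0.05. Filtering by filterByExpr removed 0 genes. Levels are TMM-scaled CPM, or CPM per kb of exon union. The SE of a log2 fold change is its absolute value divided by the square root of the F statistic of its test. Sequences and positions come from RefSeq TAIR10.1.

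Alternatives were RLE size factors, DESeq2 1.42.0, a mean CPM of at least 5, a fit on the compared groups alone, a replicate block, and leaving out each library. The members and gene lists were chosen with earlier results of these data known. Named are all members, neighbours of ESM1 (5 on each side, and called ones up to 10), the 5 nearest profiles (prior count 2), and up to 3 genes per list and contrast with the smallest adjusted p among those called; the text gives a part of these, chosen with their values known. Identifiers with a suffix (147) were left out.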

Additional observations from a re-analysis of the deposited data

How the results depend on the processing

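The counts of called hydrolysis genes moved as follows. Fitted on the compared groups alone, ago4-2 against Col-0 in control had 0 of 6 called, ago4-3 against Col-0 had 1 in control and 1 in NaCl, and ago4-3 against ago4-2 in control had 0. DESeq2 called 1 for ago4-3 against Col-0 in control and 1 for the salt change of ago4-2 minus that of Col-0. For ago4-2 against Col-0 in NaCl, with 4 called, DESeq2 gave 3 (TGG1 lost) and the compared groups alone gave 5 (NSP2 added), and for ago4-3 against ago4-2 in NaCl, with 3, those groups alone gave 4 (NSP2 added). Leaving out 1 library at a time gave 0 for salt in Col-0, 2 to 3 for salt in ago4-2 and 1 to 2 for salt in ago4-3. It gave 0 to 1 in control and 2 to 3 in NaCl for ago4-2 against Col-0, 0 to 1 and 0 for ago4-3 against Col-0, and 0 to 2 and 2 to 3 for ago4-3 against ago4-2. For the salt change against that of Col-0 it gave 0 to 1 in ago4-2 and 0 in ago4-3. The cause was not tested. The untested ESM1 salt difference changed sign without Col-0 NaCl replicate 2 or ago4-2 control replicate 1 (0.14 each, ago4-2) and without Col-0 NaCl replicate 1 (-0.16) or ago4-3 control replicate 1 (-0.06, ago4-3). Over all libraries left out it ran from -0.34 to 0.14 in ago4-2 and from -0.16 to 0.29 in ago4-3. A group left with 1 library is assumed to vary like the other groups. RLE size factors and the mean CPM filter changed no member's call, but the filter left out members of low level.

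Same-numbered libraries did not deviate together in a consistent direction. Of 15 pairs of groups, 2 had a correlation of same-numbered deviations over 0.1 and 5 had one below -0.1 (range -0.411 to 0.251). With 2 libraries a group, this cannot show that no libraries were paired. With the replicate block the members called stayed at 1, 2 and 2 for salt in Col-0, ago4-2 and ago4-3, and no member's call changed. The indole and shared list went from 5 to 3 called for ago4-3 against Col-0 in control and from 2 to 0 in NaCl under the block. Depth limits NSP2 in ago4-3 (5 to 91 counts), ESM1 in Col-0 (12 to 36) and TGG2 (34 to 120).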
